A study of Homo sapiens with 12 samples.

Results

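Mild silver exposure of intestinal cells was examined by pooling 6 arrays of silver-treated Caco-2 cells and setting them against 3 arrays of cells kept in medium, 9 of the 12 arrays of the series. Of the 6 exposed arrays, 3 came from cells given surfactant-coated silver nanoparticles (AgPURE) at 2.5 µg/mL and 3 from cells given silver ions, as AgNO3, at 0.5 µg/mL. Pooling them asks whether the particulate and the ionic form share small shifts that neither group of 3 shows on its own. Caco-2 is an established human colon carcinoma line that forms an enterocyte-like monolayer when it is kept confluent. Cells of every group were at passage 22, had been confluent for 21 days in 75 cm2 flasks, and spent the last 24 h in 20 mL of DMEM with a 1% insulin, transferrin and selenium supplement and 1% penicillin/streptomycin. Before that they were grown with 10% serum and the same antibiotics. Medium control cells received the supplemented medium without silver, so the selenium and transferrin of the supplement were common to all arrays. No group among these arrays received the surfactant or nitrate without silver, and the 2 exposures differ in dose as well as in form. A further 3 arrays, from cells given 25 µg/mL of the nanoparticles, entered only the estimate of spread between arrays, and their values are set beside the others where they are of use.

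Each gene was represented by the probe set that names that gene alone and has the highest mean over the 12 arrays, which gave 19775 genes. Values are log2 expression, so that a difference of 1 is a 2-fold difference. Replicates of a group are numbered here in the order of the deposited columns, as the titles carry no replicate numbers. Whether arrays of the same group represent independent cultures is not stated in the labels. The p-values therefore rest on array-to-array spread that could be technical only.

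Silver binds thiols and selenols and can displace zinc and copper from proteins. Metallothioneins are small cysteine-rich proteins that bind zinc, copper, cadmium and silver. Their genes are switched on by the zinc-sensing transcription factor MTF1, which binds metal response elements in promoters, and the plasma membrane zinc exporter gene SLC30A1 is another MTF1 target. Selenoproteins carry selenocysteine, which is inserted at a UGA codon with the help of a stem-loop in the mRNA and its binding protein SECISBP2. The family includes glutathione peroxidases and thioredoxin reductases, and the mRNAs of its members differ in how strongly they depend on selenium supply, those of GPX1, SELENOW and SELENOH being among the most sensitive.

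The arrays were close to each other. Over all probe sets, taken as a description, medium arrays correlated with each other with r between 0.9946 and 0.9953, with particle arrays between 0.9935 and 0.9963, and with ion arrays between 0.9901 and 0.9962. Ion replicate 1 stood apart from the rest: it had the lowest 75th percentile of all 9 arrays, 6.72 against 6.82 to 6.93, the lowest poly-A control mean, 4.95, and the smallest weight, 0.408, when arrays were weighted by their fit to the model. Poly-A, hybridization and ribosomal RNA controls and the 3' minus 5' signal of ACTB and GAPDH, a sign of RNA integrity, showed no detectable difference between exposed and medium arrays (exact permutation tests over 84 arrangements, two-sided p between 0.19 and 0.881, smallest adjusted p = 0.881 over 5 measures, where 0.0238 is the smallest possible p). The epithelial genes EPCAM, CDH1, KRT8, KRT18, KRT19 and CDH17 lay at percentile 95 of all genes or above in medium, and the enterocyte genes VIL1 and DPP4 at percentiles 94 and 89. The other 2 epithelial markers were lower, KRT20 at percentile 35 and LGALS4 at 29. SI, the gene of the brush border enzyme sucrase-isomaltase, lay at percentile 6 of all genes in medium and ANPEP at percentile 21, so these defining enterocyte markers were dim or absent. The other enterocyte genes lay between, with FABP1 at percentile 73, CDX2 at 52, ALPI at 51 and SLC15A1 at 49. Among leukocyte markers, LYZ was at percentile 83, CD14 at 51, CD79A at 50, CD3E at 34 and PTPRC at 17. Of the 8 fibroblast markers, COL1A1 was at percentile 85, PDGFRA at 76 and COL3A1 at 64, while LUM (39), PDGFRB (38), THY1 (38), DCN (29) and COL1A2 (21) lay below the median of all genes. The mean of that marker list ranged from 5.94 to 6.08 on medium arrays and from 5.84 to 6.05 on exposed arrays. COL3A1 was the only one of 39 marker genes that differed at an unadjusted p under 0.05, lower by 0.49 in exposed arrays, where ion replicate 1 had 5.90 and the other 5 arrays lay between 6.79 and 7.21. Its part in the results was not tested.

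No gene passed an adjusted p of 0.05, or of 0.10, between the 6 exposed and the 3 medium arrays. SELENOW, the gene of a small thioredoxin-like selenoprotein, had the smallest p of all genes and was at 59.0% of its medium level. The other genes lower by more than 1.5-fold were the metallothioneins MT1X, MT2A and MT1HL1, and no gene was higher by as much. In limma, 0 of 19775 genes (0%) were called, the smallest adjusted p was 0.108 (SELENOW), and 845 genes (4.27%) had an unadjusted p under 0.05, fewer than the 989 that a share of 0.05 would give. Of the 845, 481 were higher (2.43% of all genes) and 364 lower (1.84%). Both exposures lay on the same side of medium for 841 of them. Choosing genes by the mean of both exposures, against the same medium arrays, largely fixes that agreement. Among all 19775 genes, 6190 were higher and 5833 lower in both exposures. At an unadjusted p under 0.001 there were 7 higher and 7 lower genes. The typical gene moved little, with a median absolute difference of 0.064 against a median standard error of 0.092. All 6 exposed arrays lay above all 3 medium arrays for 185 genes (0.936%) and below them for 197 (0.996%).

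All of these directions hold on the deposited scale, where the median difference over all genes was 0.004. Scaling each array on its poly-A controls moved that median to 0.158 and split the genes at an unadjusted p under 0.05 into 243 higher and 7 lower. Scaling on the hybridization controls moved it to -0.033, with 56 higher and 205 lower.

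**Figure D1:**
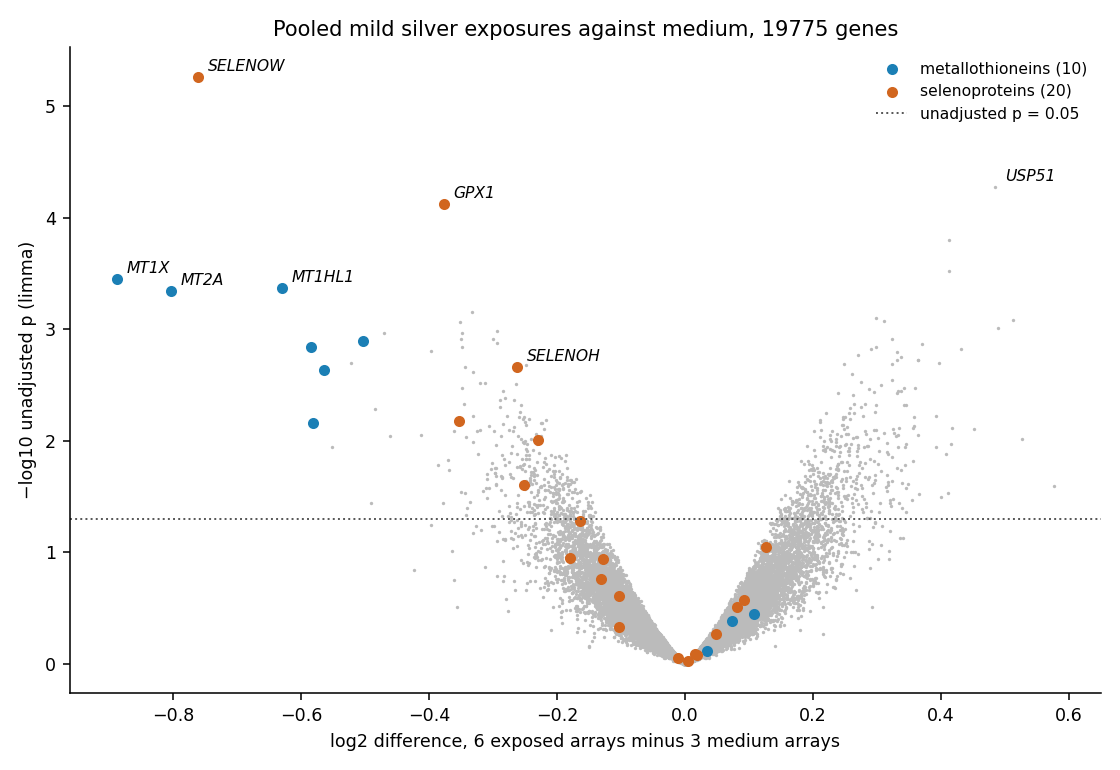
Log2 difference between the 6 exposed and the 3 medium arrays (x axis) against the −log10 of limma's unadjusted p (y axis) for 19775 genes. Selenoproteins (20) and metallothioneins (10) are coloured, the dotted line is an unadjusted p of 0.05, and SELENOW, GPX1, MT1X, MT2A and MT1HL1 lie at the upper left, while USP51 is the leading gene on the right.

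Among the selenoproteins, SELENOW, GPX1 and SELENOH were lower on every exposed array than on any medium array. SELENOW read 10.18, 10.30 and 10.38 on the medium arrays, 9.49, 9.73 and 9.63 with particles, and 9.25, 9.54 and 9.52 with ions. Exposed and medium arrays did not overlap, and the lowest array of all was an ion array. The difference was -0.76 ± 0.11 (SE), or 1.69-fold lower, with an unadjusted p of 5.46e-06 and an adjusted p of 0.108 in limma. A second SELENOW probe set gave -0.74 ± 0.08, and when every probe set was tested in place of 1 per gene, that one was called (adjusted p = 0.0041 in limma). SELENOW was also called in 6 of 20 alternative analyses of the genes, among them quantile normalization. Without the 25 µg/mL arrays it was called in a fit of 3 groups (adjusted p = 0.047 in limma) and not in a fit of the 6 exposed arrays as 1 group (adjusted p = 0.065). Its difference ranged from -0.82 to -0.61 over all 20.

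GPX1, the cytosolic glutathione peroxidase that reduces hydrogen peroxide, read 10.35, 10.47 and 10.46 in medium, 10.18, 10.18 and 10.10 with particles, and 9.92, 9.90 and 10.01 with ions. The 3 groups formed 3 steps without overlap, the ion arrays lowest. The pooled difference was -0.38 ± 0.07, the third smallest p of all genes (7.56e-05, adjusted p = 0.498 in limma). SELENOH, a nucleolar selenoprotein, read 11.72, 11.82 and 11.87 in medium, 11.59, 11.65 and 11.65 with particles, and 11.34, 11.55 and 11.46 with ions. It showed the same order of groups, the pooled difference was -0.26 ± 0.07, and all 6 of its probe sets were lower.

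A further 3 selenoprotein genes were lower at an unadjusted p under 0.05 with some overlap of arrays. SELENON, whose product is a reductase of the endoplasmic reticulum, differed by -0.35 ± 0.11, from 6.25, 6.52 and 6.37 in medium to between 5.79 and 6.29 on exposed arrays. GPX3, the secreted glutathione peroxidase, differed by -0.25 ± 0.10, from between 8.90 and 9.03 in medium to between 8.45 and 8.96. TXNRD1, the cytosolic thioredoxin reductase, differed by -0.23 ± 0.08, and ion replicate 3 alone, at 10.60, reached the medium values of 10.71, 10.70 and 10.60. A second, dim TXNRD1 probe set did not share that sign.

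Of the 20 selenoprotein genes measured, 0 were called, 6 were lower at an unadjusted p under 0.05 (against 1.84% of all genes) and 0 were higher (against 2.43%). The median over the list was -0.12, beside 0.004 over all genes, and under poly-A scaling it was 0.039, with the median of all genes then at 0.158. Under that scaling only 1 of the 20 was lower at the unadjusted threshold and 12 were higher. On the deposited scale, 13 of the 20 were lower and 7 higher at any p. GPX4, which reduces lipid hydroperoxides, differed by 0.02 ± 0.06 and SELENOT by 0.02 ± 0.09. SELENOF differed by 0.01 ± 0.08 and SELENOS, of the endoplasmic reticulum, by 0.08 ± 0.08. All of these were among the 7 higher members. SEPHS2, which makes the selenium donor for selenocysteine, differed by 0.13 ± 0.07, and SELENOP, the secreted selenium transport protein, by -0.16 ± 0.08. SELENOP read 11.14, 11.32 and 11.23 in medium, 11.16, 11.25 and 11.19 with particles and 10.77, 10.97 and 11.03 with ions, so that only the ion arrays lay wholly below medium. The difference between the exposures had an unadjusted p of 0.0071 and did not pass adjustment in limma. All 6 of the genes lower at an unadjusted p under 0.05 were lower with ions than with particles.

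SECISBP2, the factor that reads the selenocysteine signal, was itself among the leading lower genes. It read 7.88, 7.66 and 7.63 in medium, 7.58, 7.44 and 7.37 with particles and 7.48, 7.48 and 7.47 with ions, so that all exposed arrays were below medium. The difference was -0.26 ± 0.08 (unadjusted p = 0.0055, not called in limma), and its second probe set differed by 0.05 ± 0.10. At 25 µg/mL, 4 of the 6 lower selenoprotein genes were called lower, by 0.51 for SELENOW and 0.53 for GPX1, whereas TXNRD1 rose by 1.82. Over the whole list, 3 members were called higher and 7 lower at that dose, against 14.1% and 19.3% of all genes. Both sets of differences share the medium arrays.

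**Figure D2:**
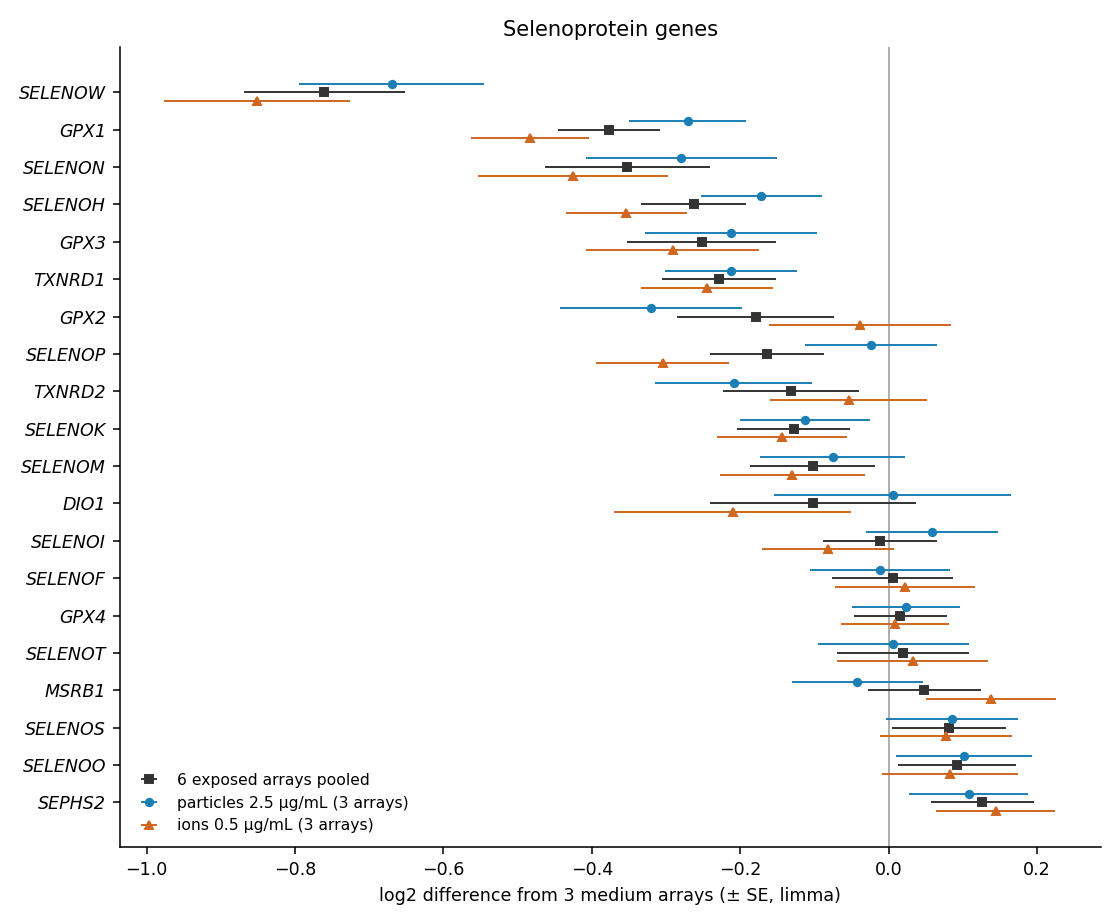
Log2 difference from the 3 medium arrays (x axis, ± SE from limma) for the 20 selenoprotein genes, for the 6 exposed arrays pooled, the particle arrays and the ion arrays. SELENOW lies farthest from 0 at -0.76, GPX1 follows at -0.38, and members from SELENOI to SEPHS2 lie around or above 0.

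Of the 10 metallothioneins measured, 7 had lower values in the exposed cells, with the particle arrays farther below medium than the ion arrays, and 3 had slightly higher ones. No member was called. MT1X had the largest difference of all genes, -0.89 ± 0.19, which left it at 54.0% of its medium level (unadjusted p = 0.000355, not called in limma). It read 11.10, 10.57 and 10.52 in medium, 9.73, 9.10 and 9.79 with particles, and 9.81, 9.94 and 10.67 with ions. All 3 particle arrays and ion replicates 1 and 2 were below medium, and ion replicate 3 lay within the medium range. MT2A, which most tissues express, read 11.94, 11.36 and 11.22 in medium, 10.65, 10.07 and 10.50 with particles, and 10.70, 10.84 and 11.45 with ions. Again all 3 particle arrays and ion replicates 1 and 2 were below medium and ion replicate 3 was within its range, and the difference was -0.80 ± 0.18.

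Promoter sequences are shown because MTF1 is known to bind metal response elements in metallothionein promoters. The 250 bases before the start of MT2A, of MT1X and of SLC30A1, the zinc exporter gene described next, are given from RefSeq (GRCh38.p14), 5′ to 3′ on the gene's strand. Capitals mark every match, on either strand, to the core of the metal response element, TGCACNC or TGCGCNC. MT2A is at chr16:56608334-56608583 on the plus strand, MT1X at chr16:56682220-56682469 on the plus strand, and SLC30A1 at chr1:211579162-211579411 on the minus strand.
MT2A: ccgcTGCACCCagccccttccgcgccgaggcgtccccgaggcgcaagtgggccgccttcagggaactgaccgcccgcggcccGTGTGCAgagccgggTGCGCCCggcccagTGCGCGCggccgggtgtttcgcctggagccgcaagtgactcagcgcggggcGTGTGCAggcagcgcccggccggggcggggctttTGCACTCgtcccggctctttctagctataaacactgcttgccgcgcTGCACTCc
MT1X: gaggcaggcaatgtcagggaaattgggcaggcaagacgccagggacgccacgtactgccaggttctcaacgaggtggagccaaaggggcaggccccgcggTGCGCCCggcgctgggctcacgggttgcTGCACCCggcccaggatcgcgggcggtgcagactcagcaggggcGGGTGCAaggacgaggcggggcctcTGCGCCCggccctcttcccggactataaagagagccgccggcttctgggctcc
SLC30A1: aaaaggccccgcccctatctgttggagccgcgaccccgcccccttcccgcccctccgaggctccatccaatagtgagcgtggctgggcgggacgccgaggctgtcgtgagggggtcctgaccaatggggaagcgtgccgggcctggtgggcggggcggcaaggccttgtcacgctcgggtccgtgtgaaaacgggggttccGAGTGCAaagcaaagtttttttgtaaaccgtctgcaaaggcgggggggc
MT2A held 7 matches, of which the nearest began 8 bases before the gene start, MT1X held 4, and SLC30A1 held 1, which began 49 bases before the start. Of 35116 RefSeq promoters of this length, 24.8% held at least 1 match, 0.37% at least 4 and 0.0313% at least 7. The windows of SELENOW and SELENOH held 0 matches and that of GPX1 held 1. The table had promoters for 4 of the 10 metallothioneins measured, and the other two were MT1H with 8 matches and MT4, whose signal was not lower (0.11 ± 0.11), with 3. A match describes the letters only.

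The remaining metallothioneins divided by signal. MT1HL1 (-0.63 ± 0.14), MT1H (-0.58 ± 0.15), MT1E (-0.58 ± 0.18), MT1F (-0.56 ± 0.15) and MT1G (-0.50 ± 0.13) lay above the median of all genes in medium and were lower at an unadjusted p under 0.05. A second, dim MT1G probe set had the opposite sign, at 0.11 ± 0.10. MT1M, MT3 and MT4 lay below the median of all genes in medium and differed by 0.07 ± 0.09, 0.03 ± 0.11 and 0.11 ± 0.11. Their probe sets are of the type named _at and those of the lower genes of the type named _x_at. Signal and type of probe set therefore cannot be told apart. Of 10 measured, 7 were thus lower and 0 higher at that threshold, against 1.84% and 2.43% of all genes, and 0 were called. In all 7, the 3 particle arrays were below every medium array, and ion replicate 3 was within the medium range. Ion replicate 2 was below medium in 7 and ion replicate 1 in 6. Because of ion replicate 3, none had all 6 exposed arrays below medium.

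Medium replicate 1 was the highest medium array for all 7 genes, with MT1E at 8.42 beside 7.73 and 7.65. Without it, the list's median of -0.57 became -0.37, and 6 of 10 members were lower at an unadjusted p under 0.05. The differences from medium were -1.19 ± 0.22 with particles and -0.59 ± 0.22 with ions for MT1X, and -1.10 ± 0.20 and -0.51 ± 0.20 for MT2A. The medians over the list were -0.83 and -0.29. All 7 were lower with particles than with ions, at unadjusted p values of the difference between 0.0023 (MT1G) and 0.064 (MT1E), with no adjusted p under 0.05 in limma. Probe sets of the metallothionein copies share sequence, so the 7 genes are not 7 separate measurements. At 25 µg/mL the order was the opposite: all 10 metallothioneins rose, by a median of 3.47, and MT1X reached 14.06, 14.12 and 14.10.

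**Figure D3:**
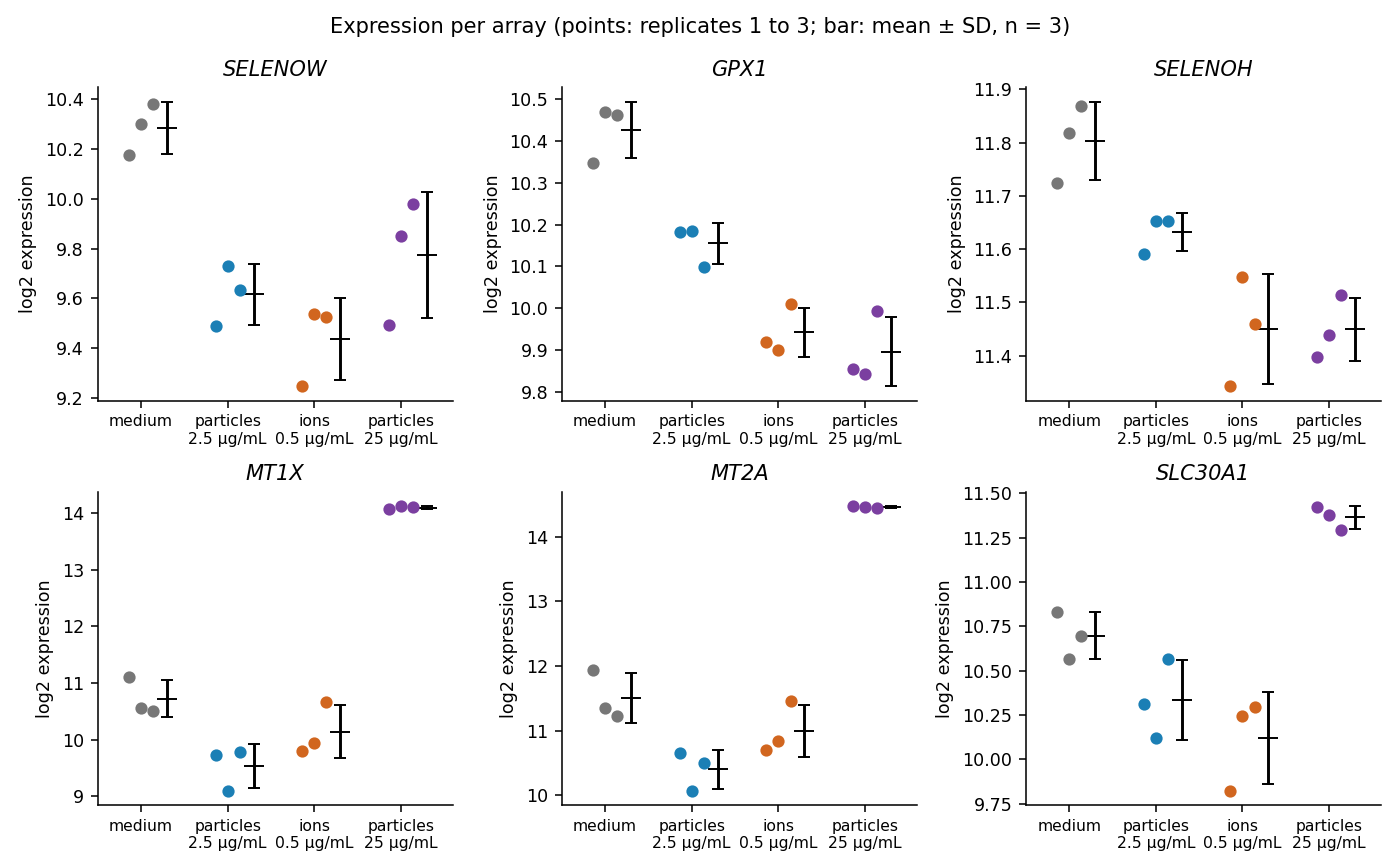
Log2 expression on every array (points) with the mean ± SD of each group of 3 (bars) for SELENOW, GPX1, SELENOH, MT1X, MT2A and SLC30A1; y axes differ between panels and do not start at 0. The selenoprotein panels show exposed arrays below medium at every dose, whereas MT1X, MT2A and SLC30A1 are lower with both mild exposures and higher at 25 µg/mL.

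SLC30A1, the exporter that carries zinc out of the cell, was lower as well, and here the ion arrays were the lower ones (unadjusted p of the difference from particles = 0.13 in limma). It read 10.83, 10.57 and 10.70 in medium, 10.31, 10.12 and 10.57 with particles, and 9.82, 10.24 and 10.30 with ions. Only particle replicate 3 reached the lowest medium value. The difference was -0.47 ± 0.12 (unadjusted p = 0.00107, not called in limma), and at 25 µg/mL the gene rose by 0.67. Its other bright probe set differed by only -0.07 ± 0.08, so the lower signal was seen with 1 of the 2 bright probe sets. Averaging its probe sets left a difference of -0.14.

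The other zinc exporters kept near medium. SLC30A7, SLC30A5 and SLC30A2 differed by -0.13, -0.10 and -0.18, and SLC30A3 by 0.14, none at an unadjusted p under 0.05, so that 1 of 10 exporters passed that threshold. Of all genes, 4.27% passed it in either direction. Among the 14 zinc importers 0 passed it, and SLC39A10, which was called lower by 0.80 at 25 µg/mL, differed by 0.02 ± 0.09. Of 13 copper-handling genes, SLC31A1, the high-affinity copper importer, passed it: it read 9.20, 9.10 and 9.14 in medium and between 8.87 and 9.05 on the 6 exposed arrays, all below medium, a difference of -0.19 ± 0.07. A second SLC31A1 probe set differed by 0.02 ± 0.08. SCO2, a copper chaperone of cytochrome oxidase, also had all 6 exposed arrays below medium, by 0.12 ± 0.06 (unadjusted p = 0.09). The copper list's median was -0.11, and 10 of its 13 members were lower. That list was not examined under the other scalings, and poly-A scaling moved the median of all genes from 0.004 to 0.158. Its direction therefore holds on the deposited scale only. None of the 13 iron homeostasis genes passed the unadjusted threshold, and that list's median was 0.01.

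**Figure D4:**
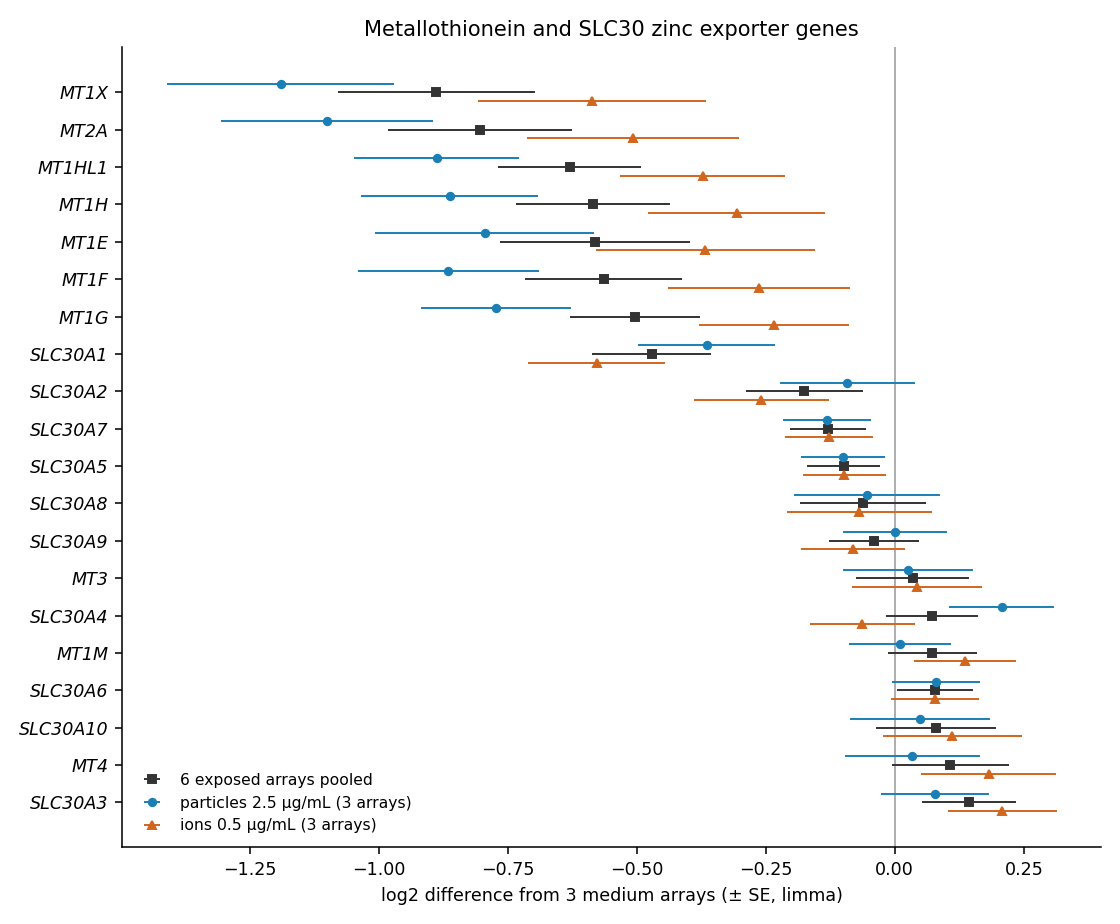
Log2 difference from the 3 medium arrays (x axis, ± SE from limma) for 10 metallothionein and 10 SLC30 zinc exporter genes, for the pooled, particle and ion arrays. The 7 metallothioneins above the median signal lie between -0.89 and -0.50 with particles farthest from 0, SLC30A1 lies at -0.47 with ions farthest, and the rest lie between -0.18 and 0.14.

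HMOX1, HSPA6, DNAJB1 and GCLM, which respond to oxidative or proteotoxic stress, had pooled values within 0.1 of medium with the probe set that represents each gene. HMOX1, which degrades haem and rose by 4.10 at 25 µg/mL, read 8.51, 8.69 and 8.76 in medium and between 8.37 and 8.86 on exposed arrays, a difference of 0.01 ± 0.11 whose sign depended on the scaling. HSPA6, an inducible HSP70 gene that rose by 6.93 at that dose, differed by 0.01 ± 0.24, again with a sign that depended on the scaling. DNAJB1, its co-chaperone, differed by 0.08 ± 0.07, and the other bright DNAJB1 probe set by -0.09 ± 0.08. GCLM, the modifier subunit of the enzyme that starts glutathione synthesis, differed by -0.02 ± 0.07. Its other, dimmer probe sets differed by -0.18 ± 0.12 and -0.16 ± 0.09.

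Of 28 NRF2 target genes, 5 were lower and 0 higher at an unadjusted p under 0.05, beside 1.84% and 2.43% of all genes. Under poly-A scaling 0 passed that threshold and 22 of the 28 were higher. GSR, which regenerates reduced glutathione, read 9.54, 9.54 and 9.44 in medium and 9.40, 9.24, 9.20, 9.05, 9.32 and 9.29 on the exposed arrays. All 6 were below medium, the difference was -0.25 ± 0.08, and both of its probe sets gave -0.25. ABCC2, an apical efflux pump for glutathione conjugates, also had all 6 exposed arrays below medium, by 0.16 ± 0.07. Both genes rose at 25 µg/mL, by 0.55 and 0.52. UGT1A6 (-0.48 ± 0.15), a glucuronosyltransferase, and EPHX1 (-0.29 ± 0.11), microsomal epoxide hydrolase, were dim, and the fifth was TXNRD1. The median over the list was -0.07, and it was 0.09 under poly-A scaling, with the median of all genes then at 0.158. Of 20 cytosolic heat shock genes only DNAJB4, an HSP40 gene, passed the unadjusted threshold, lower by 0.25 ± 0.11, and 15 of the 20 were called higher at 25 µg/mL, against 14.1% of all genes.

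Outside metals and selenium, the leading genes were a mixed group. They had the smallest p values among genes at or above the median signal whose 6 exposed arrays all lay on 1 side of medium. That choice fixes their direction and selects their size, so both are given as a description. USP51, a deubiquitinase that acts on histone H2A, led the higher genes: it read 5.78, 5.60 and 5.64 in medium, 6.23, 6.12 and 6.08 with particles, and 6.11, 6.15 and 6.23 with ions, a difference of 0.48 ± 0.09 (unadjusted p = 5.29e-05, adjusted p = 0.498 in limma). Exposed arrays were close together and at least 0.30 above the highest medium array, and the second, dimmer probe set differed by 0.09 ± 0.11. CCND1, which encodes cyclin D1, read 9.12, 9.05 and 8.98 in medium and between 9.14 and 9.51 on exposed arrays, 0.27 ± 0.08 higher, and its second probe set had the opposite sign at -0.12 ± 0.12. CDCA7L, a MYC-interacting nuclear protein gene, was higher by 0.32 ± 0.08, FGD1, an exchange factor for CDC42, by 0.30 ± 0.07, and KIFC3, a minus-end kinesin gene, by 0.31 ± 0.07.

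The other 7 leading higher genes were ZNF691, RBM4B, PPM1K, SH3PXD2B, PRDM2, NEK9 and the microRNA gene locus MIRLET7D, with differences between 0.22 (PRDM2) and 0.35 (SH3PXD2B). PPM1K is a mitochondrial phosphatase of branched-chain amino acid breakdown, and SH3PXD2B is a podosome scaffold. PRDM2, NEK9, KIFC3 and PPM1K were among the genes whose probe sets did not all share a sign. Another bright PPM1K probe set differed by 0.003 ± 0.09. Of 44 named genes with several probe sets, only 19 had all of them on the same side of medium.

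Of the 12 leading lower genes, 4 were the selenium genes SELENOW, GPX1, SELENOH and SECISBP2. NAA15, the ribosome-anchoring subunit of the main N-terminal acetyltransferase, read 8.84, 8.90 and 9.08 in medium, 8.46, 8.59 and 8.40 with particles, and 8.68, 8.52 and 7.87 with ions. Its difference was -0.52 ± 0.14, with ion replicate 3 far below the rest. Other bright NAA15 probe sets differed by -0.29 ± 0.10 and -0.10 ± 0.07. RBFOX2, a splicing regulator, was lower by 0.25 ± 0.07, FOXN3, a forkhead repressor gene, by 0.29 ± 0.09, and SRFBP1, a cofactor of serum response factor, by 0.29 ± 0.07. Another bright RBFOX2 probe set differed by 0.06 ± 0.08, and other bright FOXN3 probe sets by -0.04 ± 0.09 and -0.05 ± 0.12. ESF1, a factor of ribosomal RNA processing, was lower by 0.26 ± 0.08, and ZNF609, C16orf74 and SLC25A37 by between 0.32 and 0.35. SLC25A37 encodes mitoferrin 1, the mitochondrial iron importer, and only 4 of its 10 probe sets were lower, so that their mean gave 0.00083. At 25 µg/mL the 12 genes did not all keep this direction: FOXN3 was lower by 1.14, while NAA15 was higher by 0.69 and SRFBP1 by 0.45.

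Of 24 genes of the amino acid response driven by ATF4, 2 were higher and 0 lower at an unadjusted p under 0.05, beside 2.43% and 1.84% of all genes. Under hybridization scaling 0 passed and 15 of 24 were higher. SLC1A5, a glutamine transporter, read 8.13, 8.11 and 8.11 in medium, 8.41, 8.28 and 8.38 with particles, and 8.31, 8.23 and 8.35 with ions, so that all 6 exposed arrays were above medium (0.21 ± 0.07). STC2, a secreted glycoprotein gene, was higher by 0.26 ± 0.12 with overlap. The median over the list was 0.06 with 21 of 24 members higher, and 13 of 24 without particle replicate 3.

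Cholesterol, Wnt and proliferation lists are set beside all genes, of which 2.43% were higher and 1.84% lower at an unadjusted p under 0.05. Of 19 genes of cholesterol synthesis and uptake, LSS, lanosterol synthase, was higher by 0.24 ± 0.09 and SREBF2, the master regulator of the pathway, by 0.22 ± 0.09, the latter with all 6 exposed arrays above medium (7.41, 7.54 and 7.50 in medium, 7.56 to 7.90 exposed). Other SREBF2 probe sets differed by 0.13 ± 0.11 and -0.17 ± 0.11. The list's median was 0.07 and 15 of 19 members were higher. Without medium replicate 1 the median was 0.03, and 0 members passed the unadjusted threshold, nor did any with averaged probe sets or with poly-A or hybridization scaling. At 25 µg/mL both LSS and SREBF2 were called lower, by 0.39 and 0.37. Of 17 stem cell and Wnt target genes, CCND1 and ZNRF3, a membrane ubiquitin ligase that limits Wnt receptors, were higher, the latter by 0.34 ± 0.13 with overlap of arrays, and the list's median was 0.08. With the mean of each gene's probe sets that median was 0.02, with 9 of 17 members higher. Of 28 proliferation genes, BUB1, a spindle checkpoint kinase gene, passed the unadjusted threshold, lower by 0.23 ± 0.09. In that list 23 members were lower, 14 without medium replicate 3, and the median was -0.05, or 0.11 under poly-A scaling.

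Other lists held 1 to 4 genes past the unadjusted threshold, which 2.43% of all genes passed as higher and 1.84% as lower. Among 25 interferon-stimulated genes, IFIT1 (-0.28 ± 0.12), IFI44 (-0.18 ± 0.07, dim) and IFIH1 (-0.21 ± 0.10) were lower and IRF1 (0.32 ± 0.14) was higher, and IFIT1 was lower by 3.09 at 25 µg/mL. Among 22 immediate early genes, IER2 was higher on all 6 exposed arrays, between 8.98 and 9.10 against 8.81 to 8.91 in medium, a difference of 0.16 ± 0.06. It rose by 1.05 at 25 µg/mL, whereas ATF3, a stress transcription factor gene that rose by 1.85 there, differed by 0.22 ± 0.13 in the pooled arrays (unadjusted p = 0.101).

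In lipid handling, APOC2, the lipoprotein lipase cofactor, was dim but higher on all 6 exposed arrays, 4.78, 4.81 and 4.82 in medium against 4.91 to 4.97 with particles and 5.07 to 5.23 with ions (0.25 ± 0.07). ACACB, the mitochondrial acetyl-CoA carboxylase, was higher by 0.46 ± 0.09 with particles and by 0.11 ± 0.09 with ions. Of its 7 probe sets, 5 were higher in the pooled arrays. Another of similar signal differed by 0.01 ± 0.09 in the pooled arrays and by -0.07 with particles. DGAT1, which makes triglycerides, was lower by 0.22 ± 0.09. HNF4G, an enterocyte transcription factor gene of low signal, read 4.51, 4.54 and 4.21 in medium and between 4.64 and 5.08 on the exposed arrays, all above medium (0.40 ± 0.10). The angiotensinogen gene AGT was lower by 0.27 ± 0.13, the glycolytic gene PKM by 0.22 ± 0.09 and the NF-kB inhibitor TNFAIP3 by 0.17 ± 0.07. The p53 target ZMAT3 gave no single direction: its main probe set was lower by 0.27 ± 0.09, and another was higher by 0.26 ± 0.08. TP53INP1, also a p53 target, was higher by 0.20 ± 0.09, EGLN3, an oxygen-sensing hydroxylase, by 0.20 ± 0.09 and CYP3A5, a drug-metabolising enzyme, by 0.28 ± 0.13. GSTM4, a dim glutathione transferase gene, was lower by 0.19 ± 0.08. TGFB1, a dim cytokine gene, was lower by 0.43 with ions and by 0.04 with particles. Second probe sets of PKM, EGLN3 and TGFB1 had the opposite sign in the pooled arrays, at 0.005 ± 0.09, -0.10 ± 0.09 and 0.09 ± 0.10. Of 3 TP53INP1 probe sets, 2 were higher.

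Of the 37 lists, 15 with 299 members held no gene at an unadjusted p under 0.05. They covered the brush border and nutrient absorption, cell junctions, goblet and enteroendocrine genes, endocytosis, lysosome and autophagy, the unfolded protein response, proteasome, respiratory complex I, ribosome biogenesis, fatty acid oxidation, iron and zinc import, and epithelial and leukocyte markers. Their medians lay between -0.07 and 0.05 and their members between -0.27 and 0.25. Picking lists without a passing gene in itself keeps such values small, so they are given as a description. The share of all genes past that threshold was 4.27%. On the deposited scale, only the metallothionein, selenoprotein and copper lists had a median farther than 0.1 from 0.

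**Figure D5:**
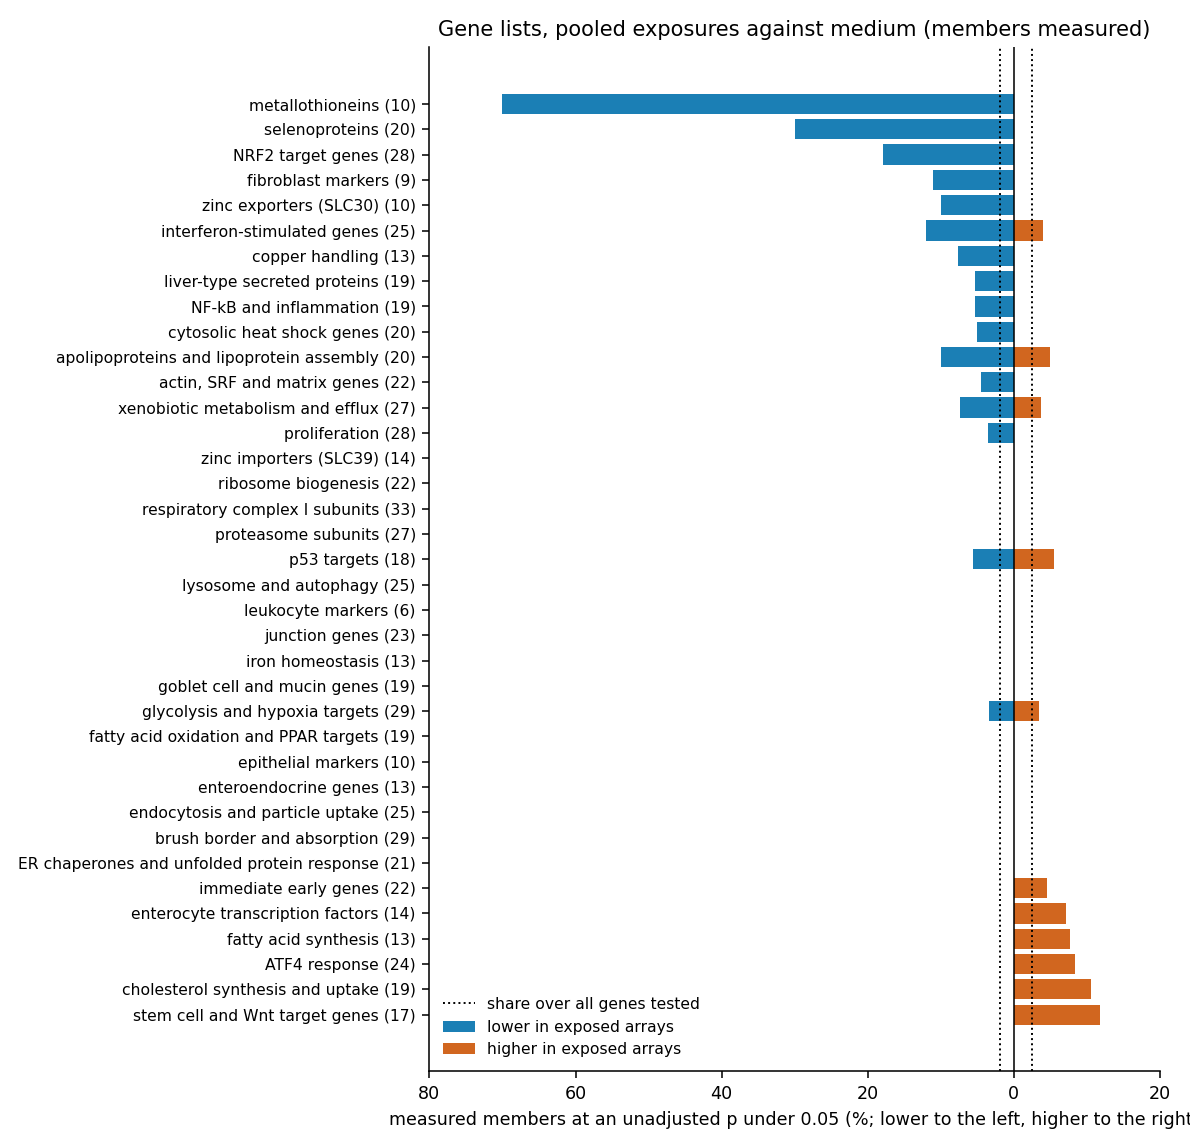
Share of measured members (x axis, %) that were lower (left) or higher (right) in the 6 exposed arrays at an unadjusted p under 0.05 for 37 gene lists, with the number measured in parentheses. Dotted lines are the shares over all genes, 1.84% lower and 2.43% higher, and the longest bars are those of metallothioneins (7 of 10) and selenoproteins (6 of 20).

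The particle and ion arrays were also compared with each other, since a pooled value can hide a difference. In limma, 0 of 19775 genes (0%) were called and the smallest adjusted p was 0.39, while 1735 genes (8.77%) had an unadjusted p under 0.05, 849 higher (4.29%) and 886 lower (4.48%) with particles. Without ion replicate 1, 923 genes did. Among the 24 leading genes of the pooled comparison, 4 had an unadjusted p under 0.05 for this difference, namely GPX1 (0.21 ± 0.08 higher with particles), SELENOH (0.18 ± 0.08), C16orf74 (0.26 ± 0.10) and ESF1 (0.24 ± 0.09), each lower with ions. Metallothioneins went the other way. The doses were 2.5 and 0.5 µg/mL, so form and dose cannot be told apart. Against medium alone, particles gave 0 called genes (0%) and 900 (4.55%) at an unadjusted p under 0.05, 536 higher (2.71%) and 364 lower (1.84%). Ions gave 0 (0%) and 1233 (6.24%), 690 higher (3.49%) and 543 lower (2.75%), and the 25 µg/mL arrays 6607 called genes (33.4%).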

How the data were processed

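RNA of 12 samples of Caco-2 cells was hybridized to 1-colour 3' expression arrays, 1 per sample, from 250 ng of total RNA per the labels. The deposited values are log2 expression per probe set, made with RMA and Partek, per the submitters' processing notes, with versions and settings not given in the sources used here. All column means were 5.57 and genes were not centred. No detection calls were used, so dim genes have no stated background, and a change in total mRNA per cell would not show. Of 54675 probe sets, 62 were controls, 41091 had 1 gene symbol in the platform annotation, 1801 several and 11721 none listed. Symbols were updated by gene ID for 41037 and 54 kept theirs. No 2 arrays were identical.

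All 12 arrays in 4 groups of 3 were fitted in limma 3.58.1 (R 4.3.3), with 8 residual and 6.25 prior degrees of freedom. The pooled contrast is the mean of both mild groups minus medium. Tests were two-sided, adjusted by Benjamini-Hochberg over 19775 genes, with errors as SE. Control probe sets were compared by exact permutation tests. Alternatives changed the normalization, scaling, filter, probe-set rule, moderation, weights, arrays fitted and threshold. The fit was tested on simulated data. Named genes were, in each direction, the 12 with the smallest p among genes above the median signal whose 6 exposed arrays all lay on 1 side of medium, up to 2 genes per list, all metallothioneins and 7 chosen genes. Other list members were named after their values were seen. The 37 lists had 791 entries, 725 of them measured. The members and lists were chosen with earlier results of these data known. Promoters came from RefSeq and figures from matplotlib 3.10.9.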

Additional observations from a re-analysis of the deposited data

Results flagged for a closer look

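Of 76 sets of 6 exposed arrays examined for a single distant array, 5 had one, and chance gives about 1 in 20. NAA15 read 7.87 on ion replicate 3, where the nearest exposed array had 8.40. DNAJB4 read 5.81 on ion replicate 1, with the nearest array at 6.27, and COL3A1 read 5.90 on the same array, with the nearest at 6.79. Also on ion replicate 1, the mean of the hybridization controls was 10.29, with the nearest array at 10.61, and the 75th percentile of all probe sets was 6.72, with the nearest at 6.86.

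With its brightest probe set, GCLM lay on opposite sides of the medium mean in the 2 exposures. It read 8.59, 8.57 and 8.48 in medium, 8.45, 8.28 and 8.52 with particles and 8.63, 8.56 and 8.72 with ions, a difference of -0.23 ± 0.09 between particles and ions with an unadjusted p of 0.019 that did not pass adjustment in limma (adjusted p = 0.53). The other GCLM probe sets were lower in both exposures, by -0.16 and -0.12 with particles and by -0.19 and -0.21 with ions.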

How the results depend on the processing

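In the pooled comparison, 15 of 22 alternatives also gave 0 called genes. Of the rest, quantile normalization, averaged probe sets, testing of every probe set, array weights and a fit of the 9 arrays in 3 groups gave 1 gene each (SELENOW), the intensity-trend and robust prior gave 2 (SELENOW, GPX1) and scaling on hybridization controls 3 (SELENOW, MT1X, MT2A). For particles against medium, hybridization scaling gave 8 genes, 7 metallothioneins and SELENOW. For ions, hybridization scaling, the mean of probe sets and every probe set gave 1 each, and the intensity-trend prior 2. For the difference between the exposures, the intensity-trend prior gave 1 (CEACAM6). Leaving out 1 array at a time gave 0 called genes in all 4 comparisons, with the smallest adjusted p between 0.19 and 0.95 in the pooled one and 739 to 1098 genes at an unadjusted p under 0.05.

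Of 68 named genes, 61 kept their sign in every alternative run. SLC25A37, at -0.35 with 1 probe set, became 0.00083 when probe sets were averaged, and DNAJB1 became -0.0027. The other 5 differed by less than 0.05 from medium. Hybridization scaling gave -0.00197 for MT3, -0.0300 for HMOX1, -0.027 for HSPA6 and -0.018 for SLC39A10. Median centring gave -0.0074 for HMOX1 and -0.0043 for HSPA6, quantile normalization -0.0089 for HSPA6, array weights -0.067 for HMOX1, and poly-A scaling 0.14 for GCLM. Leaving out 1 array at a time gave -0.0495 to 0.112 for MT3, -0.0647 to 0.0715 for HMOX1, -0.204 to 0.175 for HSPA6, -0.0485 to 0.0172 for GCLM and -0.0293 to 0.0781 for SLC39A10. The cause was not tested.

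No paired analysis was possible because the columns and titles carry no replicate numbers. Precision is limited by having 3 arrays in each group. No alternative was added after seeing the data.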
